A study of Mus musculus with 4 samples.

Results

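The Bcl2 family decides whether a stressed cell keeps its mitochondria intact or releases cytochrome c and activates caspases. Pro-survival members hold the pore-forming effectors in check. BH3-only members, which share a single short helix with the rest, bind the pro-survival proteins or the effectors and tip that balance. In the early gonad, germ cells that are misplaced or damaged are known to be removed through this pathway, and mouse germ cell numbers respond to loss of Bax and of Bcl2l1.

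Described here are 10 genes of this family, taken by name with every probe the arrays carry for them. They comprise the pro-survival genes Bcl2, Bcl2l1 and Mcl1, the effectors Bax and Bak1, and the BH3-only genes Bid, Bcl2l11, Bbc3, Pmaip1 and Bad. They were read by 16 of the 41153 probes, and 18322 genes were named in all.

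The series set HP1γ-deficient against wild-type cells that were sorted at E11.5 from mouse genital ridges and labelled primordial germ cells. These are the founder cells of the germ line. HP1γ, encoded by Cbx3, is a chromatin protein that binds methylated histone H3. The HP1γ-null embryos (HP1 gamma -/-) were homozygous for an allele made by a modified gene trap and carried the Blimp1-mVenus transgene. The wild-type embryos carried the same transgene and no trap allele is given for them. Cells were sorted for mVenus, so the sort follows the Blimp1 (Prdm1) promoter, which cells other than germ cells can also use. RNA of 5 or 6 embryos was pooled, with 500 to 3500 sorted cells from each, and 2 independent pools of each genotype were hybridised to 1 single-colour Agilent array each. A level below is the log2 signal of a probe minus the 75th percentile of its own array, so 0 means as bright as that percentile. A gene is called measured where a probe of it was well above background, by the scanner software's own criterion, on both arrays of at least one genotype. Groups are said not to overlap where both pools of a genotype lay on the same side of both pools of the other. Levels of different probes are not set against each other, since each probe has its own brightness.

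Marker levels differed between the pools. Cbx3 checked the labels, with levels of -1.95 and -1.59 in HP1γ-null replicates 1 and 2 against 4.80 and 5.07 in wild-type replicates 1 and 2 by probe A_51_P160328. Of 12 germ cell markers measured, 8 were not well above background in HP1γ-null replicate 2, Dppa3, Pou5f1 and Ddx4 among them. Dppa3 read 3.58 and -7.04 in the HP1γ-null pools, against 1.60 and -0.26 in wild type, Pou5f1 0.92 and -5.33 against -1.73 and -3.34, and Ddx4 0.66 and -6.73 against 0.19 and -1.32. The median level of the 12 endothelial markers was 3.93 and 4.15 in the HP1γ-null pools and 4.57 and 4.68 in wild type, and that of the 9 leukocyte markers was 3.89 and 3.89, against 3.82 and 4.24. Endothelial Cdh5 read 3.77 and 4.16 against 4.43 and 4.52, leukocyte Ptprc 2.82 and 2.64 against 2.74 and 2.97, and erythroid Hba-a1 -2.25 and -0.57 against -1.12 and -1.02. Ifitm3, Dppa5a, Dnd1 and Dppa2 were the 4 germ cell markers well above background in that pool, at 1.70, -0.84, -2.05 and -2.26. In bulk samples fewer cells of a type and less RNA per cell cannot be told apart.

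Of the 10 members, 9 were expressed well above background in all 4 pools, and no member differed between genotypes by the test. All 15 probes of these 9 genes were well above background on every array, including that of HP1γ-null replicate 2. The exception was Bad, a BH3-only gene whose product is switched off by growth factor signalling. Its single probe failed the background criterion on all 4 arrays, at -5.70 and -5.20 in the HP1γ-null pools and -6.12 to -5.70 in wild type, so no fold is given for it.

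Limma called 0 of the 15 member probes at an adjusted p under 0.05, and 1 had an unadjusted p under 0.05. Over all 22440 probes tested, 0.00891% were called and 7.51% had an unadjusted p under 0.05. Mean differences between HP1γ-null and wild type lay between -0.78 and 0.24 on the log2 scale, 7 of them above 0 and 8 below. Their median was -0.06, as was that of all tested probes. Standard errors of the differences were 0.20 to 0.33. Limma adjusted p ran between 0.655 and 0.994. The 95% intervals reached down to -1.54 and up to 0.97. With 2 pools a genotype, these intervals leave room for differences of that size.

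**Figure D1:**
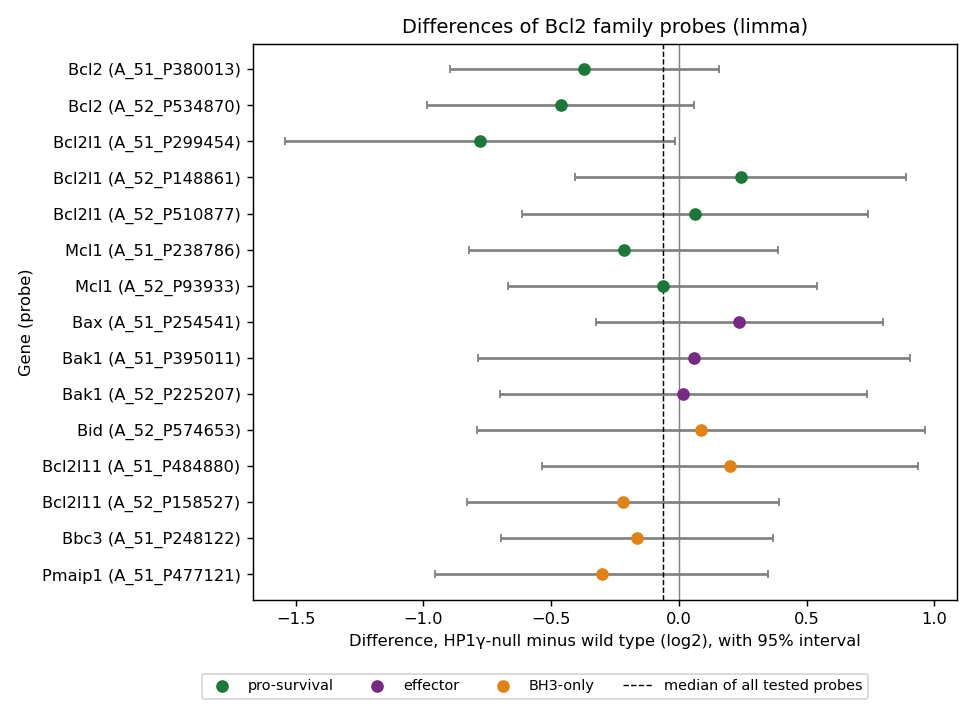
Difference between HP1γ-null and wild type for the 15 tested Bcl2 family probes (x axis, log2 units, points) with 95% intervals from limma (bars), 2 pools per genotype. The points lie between -0.78 and 0.24, and only the interval of Bcl2l1 probe A_51_P299454 stays below 0.

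Family members varied less between pools than the germ cell markers did. The range over the 4 arrays was 0.28 to 1.20 log2 units, with a median of 0.50, against a median of 0.63 over all tested probes and 6.82 over the 12 germ cell markers. The last value rests on levels that were not well above background for 8 of the 12 in HP1γ-null replicate 2. With 1 probe per gene the median was 0.49 for the members, 0.43 for leukocyte markers, 0.34 for caspase inhibitors and their antagonists, and 1.02 for endothelial markers. Low variation was thus not particular to the family. The pair of HP1γ-null pools lay farther apart than the pair of wild-type pools on 14 of the 15 member probes, as on 75% of all tested probes. The median gap on the member probes was 0.36 between the HP1γ-null pools and 0.14 between the wild-type pools.

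**Figure D2:**
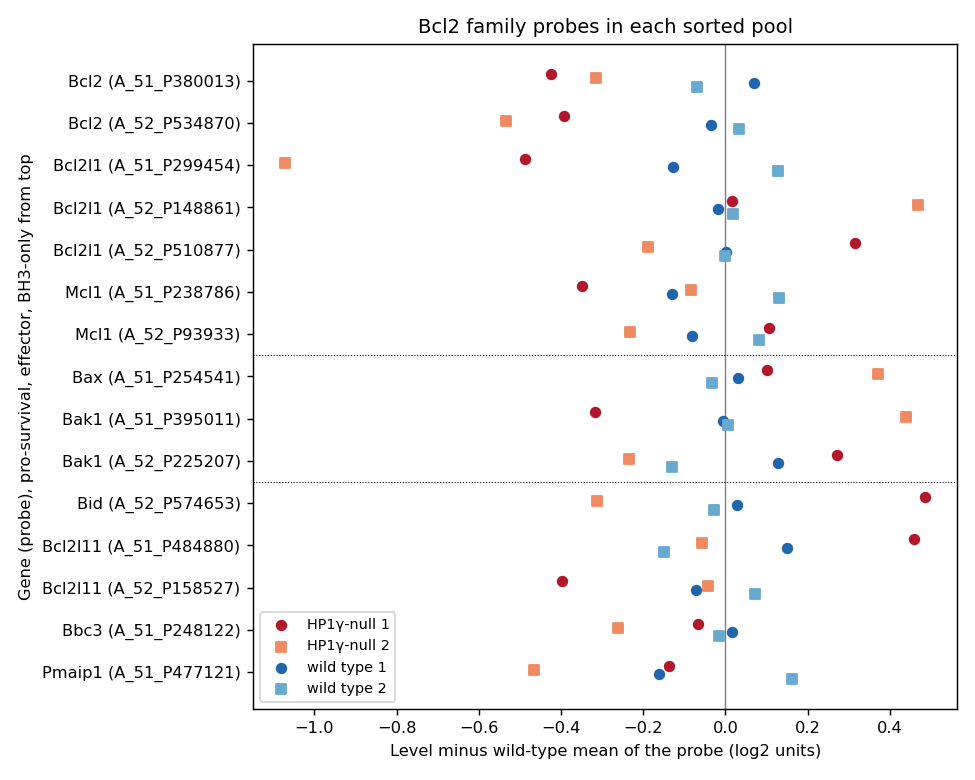
Level of each tested Bcl2 family probe in each pool minus the wild-type mean of that probe (x axis, log2 units), with pro-survival, effector and BH3-only genes from top to bottom and 1 point per array. Both Bcl2 probes sit below both wild-type pools in both HP1γ-null pools, while on 10 of the 15 probes the pools of the genotypes overlap.

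Promoter sequences are shown for Bcl2 and Bax, chosen after their values were seen because their brightest probes lay furthest below and furthest above wild type among those without overlap. The 250 bases before each start site are taken from RefSeq, build GRCm38.p6, minus strand, printed 5′ to 3′. The first lies at chr1:106714291-106714540 and has every CG dinucleotide in capitals. The second lies at chr7:45466899-45467148 and has its match to the p53 half-site consensus in capitals.
Bcl2: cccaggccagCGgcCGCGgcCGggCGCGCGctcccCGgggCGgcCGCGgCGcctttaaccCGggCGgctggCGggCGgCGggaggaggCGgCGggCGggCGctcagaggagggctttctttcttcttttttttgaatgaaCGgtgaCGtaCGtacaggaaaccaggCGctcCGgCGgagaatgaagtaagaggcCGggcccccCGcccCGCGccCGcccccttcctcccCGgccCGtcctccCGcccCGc
Bax: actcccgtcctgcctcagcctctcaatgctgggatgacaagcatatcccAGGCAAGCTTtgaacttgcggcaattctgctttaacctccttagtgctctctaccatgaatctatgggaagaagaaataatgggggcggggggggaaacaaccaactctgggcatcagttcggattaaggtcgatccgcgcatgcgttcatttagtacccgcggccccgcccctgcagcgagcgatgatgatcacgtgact

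The 250 bases of Bcl2 hold 36 CG dinucleotides and 74.8% G and C, while those of Bax hold 14 and 54%. The p53 half-site consensus, which reads the same on both strands, was searched in windows of 250 bases before to 50 after the start site. Of 15 such windows from 9 members, Bad among them, 1 held a match, that of Bax, with its first base at position -201 from the start site. Pmaip1 had no window and was not searched. The consensus was found in 8.36% of all 32851 windows. TATAAA was searched on both strands and found in none of the 15 windows, against 13.6% of all windows. Of the 15 windows, 14 held more CG dinucleotides than the median window, which has 7.

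Among the pro-survival genes, Bcl2 was the member with both probes lower in HP1γ-null pools without overlap. Bcl2 encodes the founding inhibitor of mitochondrial cell death. Its probe A_52_P534870, which is spotted 10 times on each array, read 0.11 and -0.03 in HP1γ-null replicates 1 and 2, against 0.47 and 0.53 in wild-type replicates 1 and 2. The second probe, A_51_P380013, read -0.10 and 0.01 in the HP1γ-null pools against 0.39 and 0.25 in wild type. On both probes each HP1γ-null pool was below each wild-type pool. Taken singly, 23% of all tested probes were lower in that way. The share of genes with both probes lower was not computed. The difference was -0.46 with SE 0.20 for the first probe (0.725-fold, 95% interval 0.505 to 1.04, limma adjusted p = 0.70) and -0.37 with SE 0.20 for the second (adjusted p = 0.77). Neither passed. The difference of the first probe was -0.53 without HP1γ-null replicate 1 and -0.39 without replicate 2.

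Markers of endothelium were also lower in the HP1γ-null pools. All 12 endothelial markers had lower means there, 11 of them without overlap, with a median difference of -0.67. Over all named genes tested, 20.7% were lower without overlap. The summed signal of the endothelial markers, in multiples of the 75th percentile, was 222 and 290 in the HP1γ-null pools and 390 and 432 in wild type. Each of the 12 was well above background on all arrays. From HP1γ-null replicate 1 to replicate 2 their median level rose from 3.93 to 4.15, while the brightest Bcl2 probe fell from 0.11 to -0.03. Of the 7 marker lists, the endothelial one had the median profile nearest to that of Bcl2, at a Euclidean distance of 0.28 log2 units over the 4 arrays after centring. The next was the leukocyte list at 0.42. Mcl1 lay closer than that to a list, with the leukocyte one at 0.24. The part of endothelial cells in the Bcl2 values was not tested.

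Bcl2l1, which encodes the survival protein Bcl-xL, gave different pictures by different probes. Probe A_52_P148861, the brightest of its 3 and also spotted 10 times, read -1.04 and -0.59 in the HP1γ-null pools, against -1.08 and -1.04 in wild type. Only HP1γ-null replicate 2 stood apart. The difference was 0.24 with SE 0.24 (limma adjusted p = 0.89), and 0.02 without HP1γ-null replicate 2.

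The dim probe A_51_P299454 went the other way, reading -3.33 and -3.91 in the HP1γ-null pools against -2.97 and -2.71 in wild type. Its difference of -0.78 with SE 0.29 was the member value with the smallest unadjusted p, 0.047 (0.583-fold, 95% interval 0.344 to 0.989, limma adjusted p = 0.655). It was a single spot per array near the lower edge of measurement, as the lowest level called well above background was -3.56 and -4.84 on the HP1γ-null arrays. Without HP1γ-null replicate 1 it was -1.07 and without replicate 2 it was -0.49. With normexp background correction it was -0.24, and with spiked-in scaling it was -1.32. No member probe had an unadjusted p under 0.05 with normexp, the trended robust fit or the replicate block. The remaining probe, A_52_P510877, read -2.57 and -3.07 in the HP1γ-null pools and -2.89 on both wild-type arrays, a difference of 0.06 (adjusted p = 0.98). Which Bcl2l1 transcripts each probe reads was not analysed here.

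Mcl1 encodes a short-lived survival protein that many cell types need. Probe A_51_P238786 read 4.51 and 4.77 in the HP1γ-null pools, against 4.73 and 4.99 in wild type. Its pools overlapped between genotypes, and the difference was -0.22 with SE 0.23 (0.861-fold, 95% interval 0.566 to 1.31, limma adjusted p = 0.89). It was -0.08 without HP1γ-null replicate 1, -0.09 without wild-type replicate 2, and -0.35 without either of the other arrays. The dimmer probe A_52_P93933 read 2.49 and 2.15 against 2.30 and 2.47, with a difference of -0.06.

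Of the effectors, which oligomerise to perforate the outer mitochondrial membrane, Bax was the member whose HP1γ-null pools both lay above wild type. Probe A_51_P254541, spotted 10 times, read 1.01 and 1.28 in the HP1γ-null pools, against 0.94 and 0.88 in wild type. HP1γ-null replicate 1 was close to wild type, and replicate 2 made most of the gap. The difference was 0.24 with SE 0.21 (1.18-fold, 95% interval 0.798 to 1.74, limma adjusted p = 0.87), and 0.10 without HP1γ-null replicate 2. The marker lists with median profiles nearest to that of Bax were the leukocyte list, at a distance of 0.54, and the erythroid list, at 0.81. Both distances exceeded the range of Bax over the arrays, 0.40, so neither list ran like Bax. The leukocyte median was highest in wild-type replicate 2, at 4.24, where Bax was lowest. Other lists also differed between the pools. The summed signal of the stromal markers was 12.7 and 88.4 in the HP1γ-null pools and 25.6 and 10.8 in wild type, with all 10 means higher and 1 marker without overlap. For the 5 measured of 10 gonadal soma markers it was 6.29 and 10.68 against 4.79 and 3.70. Wnt4 among them passed the filter through the HP1γ-null pools alone, where it is high. For the 5 measured of 8 mesonephric and epithelial markers the sum was 31.9 and 8.77 against 2.25 and 1.48. Their median level was 1.43 and -3.19 against -2.19 and -3.27. Of these, Krt18 and Krt8 were higher without overlap, Cdh6 was lower without overlap, and Cdh1 and Epcam overlapped. Cdh1 read 1.08 and -4.38 against -2.91 and -3.79, and Epcam 1.43 and -3.19 against -2.03 and -3.27. Both were highest in HP1γ-null replicate 1, where the median of the germ cell markers was also highest, at 0.87. The list therefore does not single out mesonephric cells. Nr5a1, Gata4, Lhx9, Emx2 and Foxl2 of the soma and Pax2, Pax8 and Lhx1 of the mesonephros were not measured. The part of any of these cell types in the Bax values was not tested.

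Bak1, the second effector, was split by its probes. The brighter probe A_51_P395011 read 0.92 and 1.67 in the HP1γ-null pools and 1.23 and 1.24 in wild type, so wild type lay between the HP1γ-null pools. The dimmer probe A_52_P225207 read -1.69 and -2.20 against -1.83 and -2.09, with the HP1γ-null pools in the opposite order. The differences were 0.06 and 0.02 (limma adjusted p = 0.99 for each).

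The repeated spots of Bcl2, Bcl2l1 and Bax show how much of these gaps lies within an array. The SD of the log2 signal between spots of one array was 0.05 to 0.07 for Bcl2, 0.05 to 0.10 for Bcl2l1 and 0.03 to 0.05 for Bax. The gap of 0.45 between the HP1γ-null pools on Bcl2l1 was several times that spread. For Bcl2 the highest spot of HP1γ-null replicate 1 was at 0.19 and that of replicate 2 at 0.04, below the lowest spot of wild-type replicate 1 at 0.30 and that of wild-type replicate 2 at 0.46. Spots of an array share 1 labelled RNA, so they measure the precision of the array and not the spread between embryo pools.

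**Figure D3:**
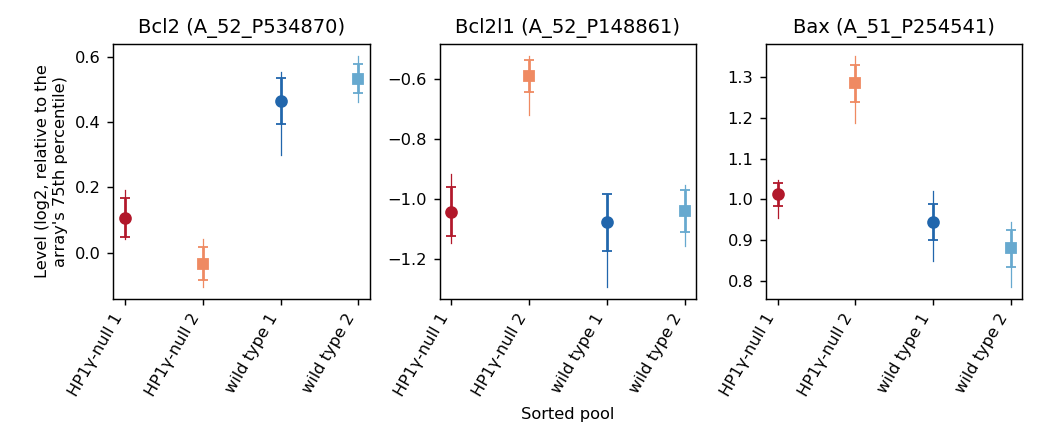
Level of the 3 members with repeated spots (y axis, log2 relative to the array's 75th percentile, each panel with its own scale) in the 2 HP1γ-null and the 2 wild-type pools. Markers are means over 8 to 10 spots, capped bars the SD between spots and thin lines the lowest and highest spot; for Bcl2 the spots of the HP1γ-null arrays all lie below those of the wild-type arrays.

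BH3-only genes were mixed. Bid, whose product links death receptors to mitochondria, had the widest gap between the HP1γ-null pools, reading 1.26 and 0.46 there against 0.80 and 0.74 in wild type. Wild type lay between them, and the difference was 0.09 with SE 0.33 (limma adjusted p = 0.98). Without HP1γ-null replicate 1 it was -0.31, and without replicate 2 it was 0.49.

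Bcl2l11, the gene of Bim, which binds all pro-survival members, read 1.14 and 1.50 in the HP1γ-null pools and 1.47 and 1.61 in wild type by its brighter probe A_52_P158527. The pools overlapped, and the difference was -0.22 with SE 0.23, or -0.04 without HP1γ-null replicate 1 and -0.40 without replicate 2. By probe A_51_P484880 the levels were -1.41 and -1.92 against -1.72 and -2.02, a difference of 0.20.

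Bbc3, which encodes the p53 target Puma, read 1.61 and 1.42 in the HP1γ-null pools against 1.70 and 1.66 in wild type. Both HP1γ-null pools were below both wild-type pools, by a mean of -0.16 with SE 0.20 (0.893-fold, limma adjusted p = 0.92). The difference was -0.26 without HP1γ-null replicate 1 and -0.07 without replicate 2. The range over the arrays was the narrowest of any tested member probe, at 0.28. Pmaip1, the gene of Noxa, which binds Mcl1, read 1.42 and 1.09 against 1.40 and 1.72, and HP1γ-null replicate 1 lay within the wild-type pair. Its difference was -0.30 with SE 0.24 (limma adjusted p = 0.86). It was -0.47 without HP1γ-null replicate 1 and -0.46 without wild-type replicate 1, but -0.14 without either replicate 2. Bax, Bbc3 and Pmaip1, which are among the p53 targets of the family, thus had differences of 0.24, -0.16 and -0.30.

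In all, 4 member probes were lower in HP1γ-null pools without overlap, both of Bcl2, 1 of Bcl2l1 and that of Bbc3, and 1 probe, that of Bax, was higher. Over all tested probes, 23% were lower and 15.1% higher without overlap, so the members' counts were near the background.

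Set by role, with the brightest probe per gene, the pro-survival genes had a median difference of -0.22, with 2 lower and 1 higher. That median was -0.084 without HP1γ-null replicate 1 and -0.085 without wild-type replicate 2, and -0.35 without either of the other arrays. The 6 measured pro-death genes had a median of -0.05, with 3 higher and 3 lower. Over all named genes tested the median was -0.02. Both effectors had higher means, with a median of 0.15, but lower ones when arrays were scaled to spiked-in control RNA. That scaling moved the median of all probes to -0.61 and left each of the 15 member probes lower. Of the 4 measured BH3-only genes 3 had lower means, with a median of -0.19.

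The shift of the pro-survival genes against the pro-death genes, as a mean per array relative to wild type, was -0.19 and -0.005 in the HP1γ-null pools and -0.03 and 0.03 in the wild-type pools. HP1γ-null replicate 1 lay below the wild-type pair and replicate 2 within it. The mean shift of the HP1γ-null pools was -0.10, less than the SD of 0.13 between them. It did not separate the genotypes.

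**Figure D4:**
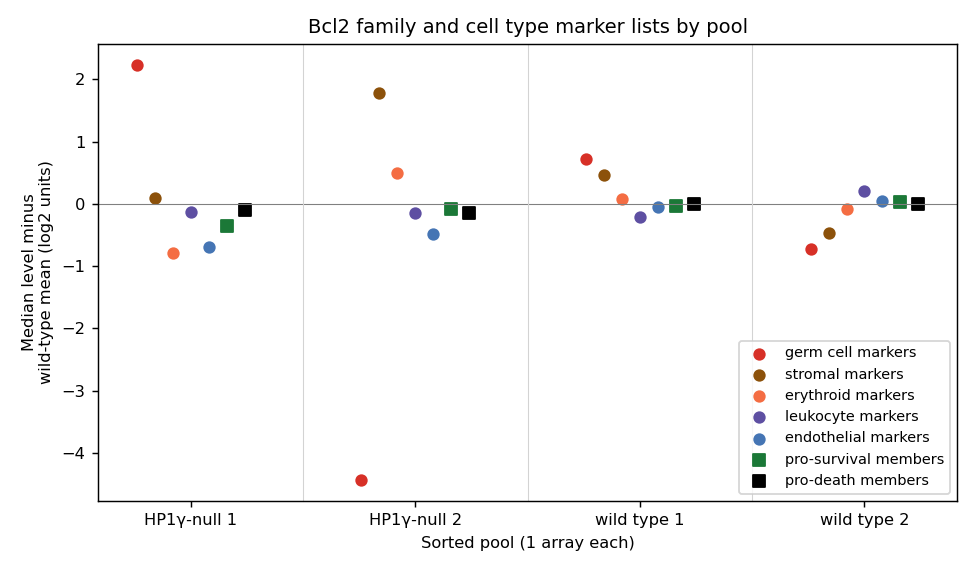
Median level of marker lists (circles) and median shift of the pro-survival and pro-death members (squares) in each pool, minus the wild-type mean (y axis, log2 units), 1 array per pool. Germ cell markers vary by several log2 units between pools, while both Bcl2 family groups stay between -0.35 and 0.03. In HP1γ-null replicate 2, 8 of the 12 germ cell markers were not well above background.

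Genes whose levels over the 4 arrays ran most like those of single members were sought among 12129 other named genes, after centring each gene on its own mean. This was done for the 3 members whose brightest probe had the widest range. Nearest to Bid were Med19, Znrd1as and Kif2c, at Euclidean distances of 0.03, 0.04 and 0.04 log2 units. Nearest to Bak1 were Rps6ka4, Tmem176b and Pck2, at 0.02, 0.03 and 0.04. For Pmaip1 they were Lsm11, Elf1 and the caspase inhibitor gene Birc3, at 0.01, 0.02 and 0.03. With 4 arrays many genes can share a profile, so these are descriptions only.

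The rest of the mitochondrial death pathway was described by lists. Limma called none of their 48 measured genes at an adjusted p under 0.05. The 1 with an unadjusted p under 0.05, Bcl2l15, passed the filter through the HP1γ-null pools alone, where it is high, so its p is no support for a difference. Among 12130 named genes tested with 1 probe each, 0% were called and 7.31% had an unadjusted p under 0.05.

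Of other pro-survival relatives, 3 of 6 were measured, with a median difference of -0.18. Bcl2a1b, a survival gene of blood cells, read 1.96 and 1.37 in the HP1γ-null pools and 1.98 and 1.78 in wild type, and Bcl2a1c read -0.85 and -1.45 against -0.78 and -1.16. These near-identical copies may share signal on their probes. Of other pro-death relatives, 6 of 9 were measured, 4 with higher means, Bcl2l15 among them, and 2 with lower ones, and a median of 0.06. For Bcl2l15 neither wild-type array was well above background, which gives a bound of 1.73-fold higher in the HP1γ-null pools. The bound has no spread, and the gene passed the filter through those pools alone, so the bound is no support for a difference. That bound sets the mean of the HP1γ-null pools, -3.11, against the lowest level well above background on each wild-type array or its own, whichever is higher.

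Downstream of the mitochondria, 6 of 7 apoptosome and caspase genes had lower means, 4 of them without overlap, with a median of -0.19. Over all named genes tested, 6434 of 12130 had lower means, and 20.7% were lower and 17.7% higher without overlap. Apaf1, the scaffold on which cytochrome c assembles the apoptosome, read -0.95 and -0.80 in the HP1γ-null pools against -0.44 and -0.26 in wild type by its brightest probe, a difference of -0.53 with SE 0.20 (limma adjusted p = 0.68). Its further probes gave -0.12 and 0.09.

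Caspase inhibitors and their antagonists were likewise lower by mean in 6 of 7 genes, 3 of them without overlap, with a median of -0.15. Xiap, which blocks caspases directly, read -0.56 and -1.10 in the HP1γ-null pools against -0.24 and -0.05 in wild type, a difference of -0.69. Its further probes gave -0.66 and 0.28. Diablo, which frees caspases from such inhibitors, was the exception, at 1.36 and 1.27 against 0.94 and 0.91, a difference of 0.39 (limma adjusted p = 0.68 for Xiap and 0.75 for Diablo).

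Among 7 other mitochondrial genes, 3 had higher and 4 lower means, with a median of -0.15. Endog, a mitochondrial nuclease gene, differed by 0.21 and Tmbim6, an inhibitor of Bax in yeast assays, by -0.24. Of 8 death receptor genes, 6 had lower means, with a median of -0.15. Cflar, the inhibitor of caspase-8 activation, read 1.86 and 1.61 in the HP1γ-null pools against 2.21 and 2.23 in wild type, a difference of -0.49 with SE 0.21 (limma adjusted p = 0.70), and its 3 further probes gave -0.17, -0.45 and -0.36. Ripk1, a kinase of the same complex, differed by -0.35. Of 10 upstream regulators, 5 had higher and 5 lower means, with a median of -0.04. Foxo1, a transcription factor that can raise Bcl2l11, differed by -0.39 and Ywhaz, a 14-3-3 protein gene, by -0.23.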

How the data were processed

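Single-colour Agilent arrays measured total RNA of 4 pools, 4 ng each, labelled with Cy3 after low-input amplification, per the labels' protocols. Per the file headers, the deposited intensity values came from Agilent Feature Extraction 10.7.3.1, as the submitters' processing notes also give, which subtracted background and detrended each array by itself. The deposited value table of the authors repeated these intensity values in rounded form, within 0.497%. The slide and the scan were shared by the 4 arrays. The labels call the pools independent.

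Levels computed here were log2 processed signals, from which the 75th percentile of each array was taken (125 and 291 intensity units on the HP1γ-null arrays, 188 and 219 on the wild-type arrays). Control spots and spots marked as outliers were left out, and spots of a probe were averaged. Testing covered the 22440 probes that both arrays of either genotype placed well above background, by limma 3.58.1 (R 4.3.3; lmFit, then eBayes, two-sided, Benjamini-Hochberg over all of them, threshold 0.05, no covariate). The number of arrays limits the precision. Accessions were matched to RefSeq names of GRCm38.p6 for 26877 probes. That build is not the one of the array design, so only promoter windows carry coordinates. Where 1 probe per gene was needed, the tested one with the highest mean was used. The script was tested on simulated data, and Python 3.11.15 with pandas 2.3.3 read the files.

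Members, lists and tests were chosen with earlier results of these data known. Named genes are all members, Cbx3, 6 marker genes, and from each pathway list those with an unadjusted p under 0.05 or else the 2 with the smallest; 1 gene so named is not reported here. Alternatives were quantile, bright-probe median and spiked-in scaling, normexp with offset 50 on the median spot and background signals (the files used here give no mean signal), the value table, 2 other filters, a trended robust fit, a replicate block, the mean of a gene's probes, and leaving out each array.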

Additional observations from a re-analysis of the deposited data

How the results depend on the processing

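No member probe was called under any of the alternatives run. Over all probes, 2 were called. The count was 0 without the filter (1474 at an unadjusted p under 0.05), 1 with probes bright on all arrays, 12 with a trended robust fit, 144 with spiked-in scaling and 0 without any 1 of the 4 arrays, with 607 to 5644 at an unadjusted p under 0.05 then. With the replicate block the count was 13 and no member was called (lowest limma adjusted p 0.75). Whether replicate numbers pair the pools cannot be settled with 2 pairs. Deviations of same-numbered pools correlated at 0.07 over the tested probes.

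Without 1 array, member probe differences kept their direction in 52 cases and turned in 8. The filters, the trended robust fit and the replicate block cannot move a difference. Spiked-in scaling turned Bcl2l1 to -0.30 (A_52_P148861) and -0.48 (A_52_P510877), Bax to -0.31, Bak1 to -0.48 and -0.53, Bid to -0.46 and Bcl2l11 to -0.34 (A_51_P484880), because it moved the median of all probes to -0.61. Quantile normalization turned Bak1 probe A_52_P225207 to -0.0251. Leaving out 1 array gave ranges of -0.19 to 0.31 for Bcl2l1 probe A_52_P510877, -0.23 to 0.10 for Mcl1 probe A_52_P93933, -0.32 to 0.44 and -0.24 to 0.27 for Bak1, -0.31 to 0.49 for Bid and -0.0575 to 0.46 for Bcl2l11 probe A_51_P484880. Both Bcl2 probes stayed below 0, at -0.53 to -0.39 and -0.44 to -0.30.

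The pro-death median of -0.05 was -0.0246 with quantile normalization, -0.079 with normexp, 0.0603 without the filter, 0.0147 with the mean of all probes and -0.60 with spiked-in scaling, and -0.15 to -0.0407 without 1 array. The pro-survival median of -0.22 was -0.76 with spiked-in scaling and -0.35 to -0.084 without 1 array. The shift of pro-survival against pro-death genes was -0.22 with the mean of all probes and -0.19 to -0.005 without 1 array. Without the filter the pro-death median also counts Bad, whose probe failed the background criterion on every array. The cause of the other moves was not tested. Dim probes, such as Bcl2l1 A_51_P299454, and 2 pools a genotype limit what can be seen.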

Other observations

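In the 5 members with over 1 tested probe, the brightest and the dimmest probe ordered the HP1γ-null pools in opposite ways. The share of all genes that do so was not computed. For Bcl2l1, Mcl1, Bak1 and Bcl2l11 the brightest probe was higher in HP1γ-null replicate 2 than in replicate 1, by 0.45, 0.26, 0.76 and 0.36 log2 units. Their dimmest probes were lower in replicate 2, by differences of -0.58, -0.34, -0.51 and -0.52 in the same order. Bcl2 had the reverse direction, at -0.14 on its brightest probe and 0.11 on the other. Thus 4 of the 5 members with over 1 tested probe had a greater replicate 2 minus replicate 1 difference on the brightest probe. Across all 4326 genes with over 1 tested probe this held for 49.4%, with a median difference of -0.01 between brightest and dimmest probes, and for 51.8% under quantile normalization. With normexp it held for 70.6%. The 5 members were looked at in this way after their values were seen, and no cause was tested. The brightest probe therefore decides the sign given for Bcl2l1 and Bcl2l11, whose differences were 0.24 and -0.22 on it, and -0.78 and 0.20 on the dimmest probe.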
